A study of Mus musculus with 6 samples.

Results

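The miRNAs described here carry the names miR-297, miR-466, miR-467 and miR-669. In mouse most of their genes form a repeated array inside Sfmbt2, and they were taken from the deposited tables by name alone. Of 1836 miRNA names listed, 78 belonged to these families, with 6 names for miR-297, 31 for miR-466, 13 for miR-467 and 28 for miR-669. Names with equal counts in all 6 libraries were joined, which left 65 groups, 54 of them with a single name and 11 with several. Small RNAs were sequenced from the choroid and sclera together with the retinal pigment epithelium (RPE) of male mice aged 7 to 8 weeks, with no strain or genotype given. Eyes of the choroidal neovascularization (CNV) group received 25 laser spots (532 nm, 100 mW, 0.1 s, 50 µm) and were taken 7 days later, and control eyes came from mice of the same age without laser. Each group had 3 libraries, and each library was made from a pool of 4 eyes. Whether pools came from different mice is not stated in the labels, so a p-value here reflects how these pools vary, which may be partly technical.

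A miRNA is a short RNA that guides Argonaute proteins to messenger RNAs, mainly through its seed, bases 2 to 8 from its 5′ end. Its hairpin precursor gives a 5p and a 3p arm, and usually a single arm is kept. The Sfmbt2 array is specific to rodents and grew by repeated duplication, so many of its miRNAs differ by few bases or none. The host gene encodes a Polycomb group protein and is expressed from the paternal allele in extraembryonic tissue. The array is known for its role in growth of the mouse placenta, and no specific function of it in the back of the eye is taken as given here.

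In GENCODE M21, on mouse build GRCm38, there are 81 genes named Mir297, Mir466, Mir467 or Mir669, of which 71 lie in a single intron of Sfmbt2. That gene spans 10370510 to 10595253 on the plus strand of chromosome 2. The miRNA genes run from 10466663 to 10518279, a stretch of 51.6 kb between exons 11 and 12 of its principal annotated transcript. They comprise 29 genes of the Mir669 family, 23 of Mir466, 14 of Mir467 and 5 of Mir297. The middle of the array is a tandem repeat, in which 7 consecutive copies of Mir467a start 2413 to 2470 bp apart. Several mature miRNAs therefore have many sources, with 10 genes for miR-467a, 12 for miR-669a and 8 for miR-466b.

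**Figure D1:**
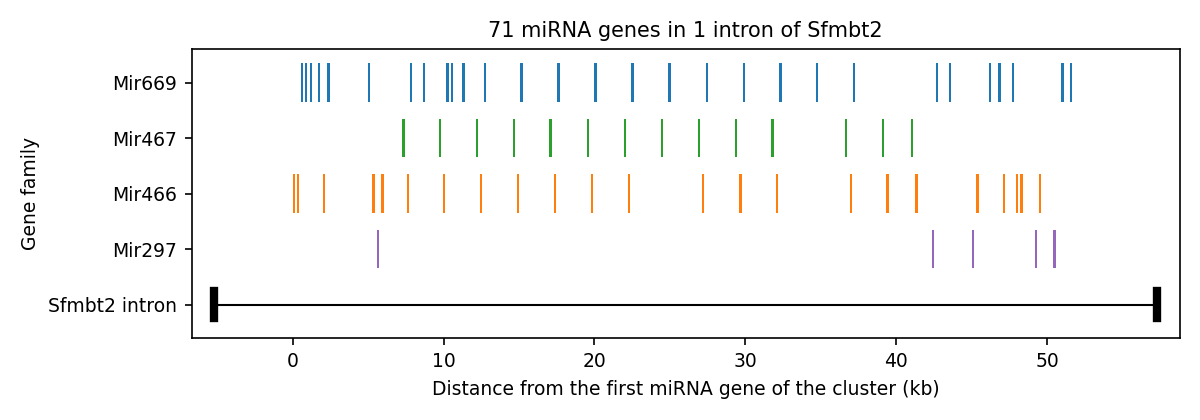
Positions of the 71 miRNA genes inside the Sfmbt2 intron, by gene family (rows), as distance in kb from the first miRNA gene of the array. Black bars mark the ends of the intron, and the evenly spaced Mir467, Mir466 and Mir669 marks in the middle are the tandem copies.

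The other 10 genes lie on 7 chromosomes. Mir466i is on chromosome 13 (17747473 to 17747593, plus strand) on the strand opposite an intron of Cdk13, Mir466q on chromosome 3 in an intron of Tnik, and Mir467f on chromosome 11 on the strand opposite an intron of Fxr2. By gene name, 62 of the 78 miRNA names have genes only in Sfmbt2, 9 only elsewhere, 5 in both, and 2 matched no annotated gene name. Those 2 were miR-466a-5p and miR-466a-3p. A gene named Mir466, without a letter, lies in the Sfmbt2 intron and was not joined to them. The library reads do not tell copies of the same mature sequence apart.

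RefSeq sequences on GRCm38.p6 were matched for 8 of the 78 names, all with genes outside Sfmbt2. They are shown for the simple repeats that they hold. Sequences of the array miRNAs and of the tested members were not matched, so none of those is described here. Capitals mark the seed.
miR-466q: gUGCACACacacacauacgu
miR-466i-3p: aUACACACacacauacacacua
miR-467f: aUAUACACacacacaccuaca
miR-467g: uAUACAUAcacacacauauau
miR-669n: aUUUGUGUguggaugugugu
miR-466k: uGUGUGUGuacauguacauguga
miR-466j: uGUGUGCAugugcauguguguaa
miR-467h: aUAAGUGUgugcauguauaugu
A miRNA outside the families but rich in the same repeat, miR-574-5p, is printed for comparison.
miR-574-5p: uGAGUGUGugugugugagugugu
The first 4 contain the motif CACACA and the next 4 its reverse complement UGUGUG, so all 8 held a motif. Among 1679 mature miRNAs in the same table, 0.715% held CACACA, 1.67% UGUGUG and 2.38% either. The 8 seeds all differ from each other, and only that of miR-467h also occurs in another miRNA of the table, miR-668-5p. The longest unbroken alternation of A and C was 12 bases, in miR-466q and miR-467f, and that of U and G was 9 bases in miR-466k against 13 in miR-574-5p. Fragments of other transcripts with such repeats could match these names, and how many mismatches the authors allowed is unknown from the sources used here.

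None of these 8 miRNAs was abundant enough to be tested. Counted over all 6 libraries, miR-466q had 45 reads, miR-466i-3p 33, miR-669n 20 and miR-466j 10. The other members of this set, miR-466k, miR-467h, miR-467g and miR-467f, had 7, 6, 4 and 2.

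As a whole the families were rare in this tissue, and the summed level of the CNV pools lay within the range of the control pools. With each equal-count group counted once, they held 8737 reads, which is 0.0234% of all miRNA counts. Groups with nearly equal counts, described below, were kept separate in this total. Their summed level was 182.9, 253.4 and 203.5 CPM (reads per 1000000 counts of the library) in control replicates 1 to 3, and 191.6, 220.4 and 213.9 in CNV replicates 1 to 3. Control replicates 1 and 2 were the lowest and the highest. The means were 213 ± 36.3 and 209 ± 15.1 (SD, n = 3), a ratio of 0.978. The side of 1 on which it lay depended on the scaling. It was 1.08 with totals scaled by trimmed mean of M-values (TMM) and 1.01 with miRNA counts alone as the total. A score over these names was given no test. The library total ranged from 5057142 to 12839386 counts, and the deepest library, control replicate 2, was also the one with the highest summed level. Without it the ratio was 1.08, and without control replicate 1 it was 0.913.

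The miR-467 family had the highest summed level, and in it control replicate 2 stood above the rest. Its level was 76.9, 118.2 and 85.4 CPM of the unscaled library total in control and 71.5, 89.8 and 86.8 in CNV. The miR-669 family followed with means of 72.0 ± 11.5 and 74.1 ± 5.002 (SD, n = 3). The miR-466 family had means of 42.2 ± 3.31 in control and 47.0 ± 1.45 in CNV, and its lowest CNV pool (45.4) lay just above its highest control pool (44.8). Without miR-466i-5p, described below, the groups overlapped, with 33.5, 39.6 and 39.5 in control and 34.4, 40.0 and 37.7 in CNV. The miR-297 family was the rarest, at 5.553 ± 0.2031 and 4.88 ± 0.675. Names with genes only in Sfmbt2 formed 50 groups and summed to 198 ± 34.8 in control and 189 ± 18.5 in CNV. Names with genes only elsewhere formed 9 groups and summed to 7.67 ± 1.00 and 12.7 ± 2.76. Nearly all of that gap came from miR-466i-5p, without which the other 8 groups summed to 3.04 ± 0.690 and 3.08 ± 1.39.

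Detection was highest in the deepest library. Control replicate 2 had reads for 76 of the 78 names and the other libraries for 62 to 66, with no such order by depth among them: the deepest of these, CNV replicate 1, had 62 and the shallowest, control replicate 3, had 66. At the depth of the shallowest library, 66.3 names would be expected from control replicate 2 and 60.6 to 66.0 from the others. Reads in every library were found for 51 names. A further 27 had 0 reads in at least 1 library, and 18 had fewer than 10 reads over all 6. A name with 0 reads was not detected at these depths, which does not show that it was absent.

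The reads were unevenly spread over names. The groups miR-467a-5p with miR-467b-5p and miR-669a-3p with miR-669o-3p together held 40.8% of the families' reads, and the 10 largest groups 78.2%. Equal counts joined names with genes in the array, as in miR-297a-3p, miR-297b-3p and miR-297c-3p (151 reads each). Whether their sequences are the same was not checked. Groups with few reads may be equal by chance, such as miR-466n-3p with miR-466o-3p (3 reads each). The pair miR-466m-5p and miR-669m-5p (12 reads each) crossed families. The pair miR-466a-3p and miR-466e-3p had 37, 96 and 43 reads in control and 38, 50 and 33 in CNV. The trio miR-466b-3p, miR-466c-3p and miR-466p-3p had 35, 96 and 43 in control and 37, 50 and 33 in CNV. The counts of this trio and of miR-466a-3p with miR-466e-3p were the same in 4 of the 6 libraries. Such values are not separate measurements. That pair and the trio were still kept as separate groups in the sums, shares and counts of groups given here.

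Arm use differed from name to name within the families. Of 33 names with both arms listed, 22 had at least 100 reads, and 8 of these were mostly 5p and 14 mostly 3p. Names with equal counts share their reads, so the 8 rest on 7 separate sets of 5p reads and the 14 on 8 separate sets of 3p reads. The 5p arm took 95.3% of the reads of miR-467c, 98.8% of miR-669c and 87.3% of miR-467e. The 3p arm took 95.7% of the reads of miR-466d, 91.6% of miR-669o (reads shared with miR-669a-3p) and 80.7% of miR-297b (shared with miR-297a-3p and miR-297c-3p). The exception among the miR-466 names with at least 100 reads was miR-466i, whose annotated gene lies outside Sfmbt2 and whose reads were 89.3% 5p. Whether those 5p reads came from that gene was not tested. Shares that rest on shared reads are uncertain. For example, the 3p reads of miR-467d (87.3% of its reads) were the same as those of miR-467a, where they made up 9.54%.

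**Figure D2:**
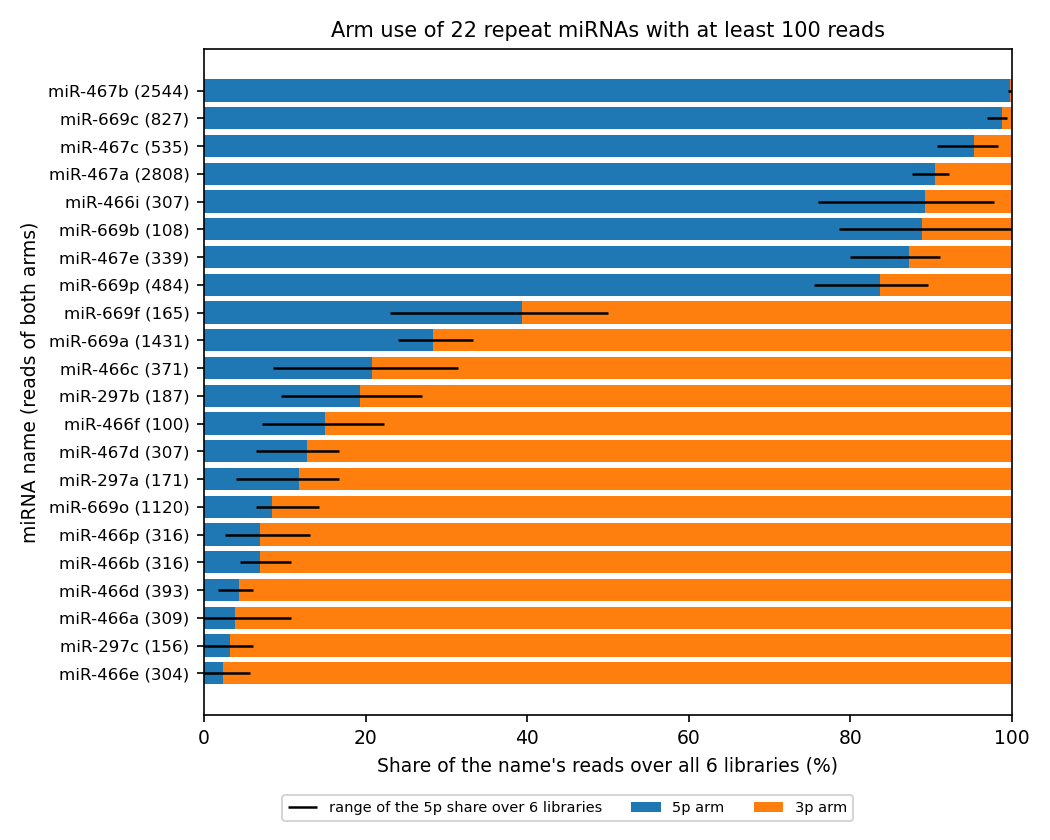
Share of reads from the 5p and the 3p arm (horizontal axis, percent of both arms over all 6 libraries) for the 22 names with at least 100 reads, given in brackets. Black lines span the 5p share from the lowest to the highest library, and miR-466i is the only miR-466 name on the 5p side.

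The comparison of CNV with control asked whether single members differ after laser. A filter on low counts kept 29 of the 78 names, in 20 groups. The other 49 had 1 to 65 reads in all and were not tested. Levels of single members below are CPM of the library total scaled by trimmed mean of M-values (TMM). Log2 fold changes are from edgeR's quasi-likelihood test, with p adjusted over all 997 small RNAs tested. At an adjusted p of 0.05 none of the 20 groups was called, against 0.301% of all small RNAs and 0.555% of the 541 miRNAs. At an unadjusted p under 0.05 there were 2 groups (10%), against 17.6% of the miRNAs. On TMM-scaled levels the control and CNV pools did not overlap for the same 2, or 10%, against 24% of miRNAs. Both were higher in CNV, as 12.8% of miRNAs were, while 11.3% were lower and no group was. On unscaled library totals 3 groups did not overlap, with miR-669p-3p lower in CNV. That name was picked after its values were seen, and the share of miRNAs on that scaling was not computed. DESeq2 called 1 group, miR-466i-5p, and gave no adjusted p for 9 of the 20, against 4.01% of small RNAs called, and limma-voom called none. On the edgeR counts and the TMM-scaled overlap counts the families were thus at or under the background. That background was not matched for level. The median level was 6.88 CPM of the unscaled library total for the 20 groups and 35.6 for all tested miRNAs. With so few groups these shares are not read as a result about the families. The median log2 fold change of the 20 groups was 0.08, beside 0.01 for all tested miRNAs. With library totals as the only scaling both were lower, -0.08 and -0.14, and the groups above 0 went from 15 of 20 (against 51.2% of miRNAs) to 7 of 20, so the sign of the small differences below depends on the scaling. Of the 20, 18 had a log2 fold change between -0.5 and 0.5.

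**Figure D3:**
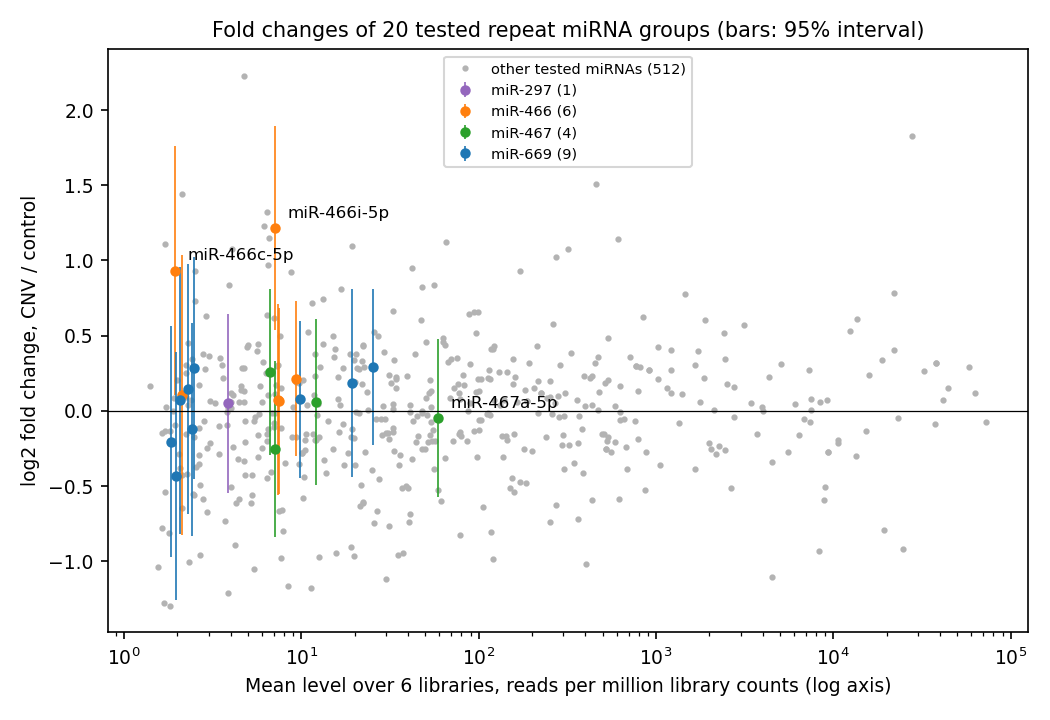
Log2 fold change of CNV against control (vertical axis) against the mean level (horizontal log axis) for the 20 tested groups, coloured by family with 95% intervals, over 512 other tested miRNAs in grey. The groups lie near 0 except miR-466i-5p (1.22) and miR-466c-5p (0.93), and no group passed the adjusted test.

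The member with the largest difference was miR-466i-5p, whose annotated gene is the one opposite Cdk13 on chromosome 13. The sequence of this arm was not matched, and the partner arm miR-466i-3p, printed above, holds the AC repeat. Whether the reads came from that gene or from other transcripts with such repeats was not tested. The reads of miR-466i-5p numbered 26, 66 and 19 in control replicates 1 to 3 and 75, 44 and 44 in CNV replicates 1 to 3. Its level was 4.49, 4.74 and 3.88 CPM in control and 14.6, 8.76 and 7.57 in CNV. The lowest CNV pool lay above the highest control pool, and CNV replicate 1 was the highest of all. The means were 4.37 ± 0.444 and 10.3 ± 3.76 (SD, n = 3), a fitted 2.32-fold difference (log2 1.22, SE 0.30, 95% interval 0.54 to 1.89). It did not pass edgeR's test over all small RNAs, with an unadjusted p of 0.00298 and an adjusted p of 0.127, and 6 tested miRNAs had a larger positive fold change. DESeq2 called it higher (adjusted p 0.0264), as did edgeR without the filter on low counts (0.0147). Over the alternatives run, the adjusted p ranged from 0.0147 to 0.507 and the log2 fold change from 0.87, without CNV replicate 1, to 1.32. The other arm of its hairpin, miR-466i-3p, had 3, 11 and 6 reads in control and 8, 1 and 4 in CNV, too few to be tested.

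The other member with pools that did not overlap on TMM-scaled levels was miR-466c-5p, from 2 genes of the Sfmbt2 array. It rested on 8, 23 and 4 reads in control and 17, 10 and 15 in CNV, near the filter on low counts. Its level was 1.38, 1.65 and 0.817 CPM in control and 3.31, 1.99 and 2.58 in CNV. The CNV pools were the higher, with means of 1.28 ± 0.427 and 2.63 ± 0.660 (SD, n = 3). The log2 fold change was 0.93 (SE 0.37, 95% interval 0.10 to 1.76), the unadjusted p 0.0318 and the adjusted p 0.240 in edgeR's test. No alternative that gave it an adjusted p called it. DESeq2 gave it none (log2 0.93), and at a minimum mean of 20 CPM it was not tested. The 3p arm of the same hairpin, counted together with miR-466b-3p and miR-466p-3p, had a log2 fold change of 0.08.

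On unscaled library totals, summed marker miRNAs of several cell types, the RPE included, differed between the groups without overlap in the same libraries. The summed level of 3 leukocyte miRNAs (miR-142a-3p, miR-142a-5p, miR-223-3p) was 272 to 389 CPM of the unscaled library total in control and 487 to 661 in CNV. That of 3 photoreceptor miRNAs (miR-182-5p, miR-183-5p, miR-96-5p) was 53463 to 84061 in control and 23354 to 50863 in CNV. With TMM-scaled totals the photoreceptor sums overlapped, as control replicate 2 fell just below CNV replicate 3. On unscaled totals the neuron miRNAs miR-124-3p and miR-9-5p summed to 13910 to 22140 in control and 6772 to 12052 in CNV. All of these miRNAs were counted in every library, and their part in the values of miR-466i-5p and miR-466c-5p was not tested. The summed levels of the endothelium, smooth muscle and pericyte, erythrocyte, skeletal muscle and surface epithelium lists overlapped between the groups. In bulk tissue fewer cells of a type and less RNA per cell cannot be told apart. The defining miRNAs of the RPE, miR-204-5p and miR-211-5p, were counted in every library, and their sum was also lower in every CNV pool, at 6554 to 7749 in control and 4649 to 5739 in CNV.

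The most abundant member, miR-467a-5p with miR-467b-5p, did not separate the groups. Its level was 41.9, 77.0 and 61.1 CPM in control and 56.2, 62.3 and 55.9 in CNV. Control replicates 1 and 2 were the lowest and the highest of the 6 libraries, with the CNV pools between them. The means were 60.0 ± 17.6 and 58.1 ± 3.61 (SD, n = 3), and the log2 fold change of -0.05 had a 95% interval of -0.58 to 0.48 (edgeR adjusted p 0.936). The interval spans 0.

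The second most abundant group, miR-669a-3p with miR-669o-3p, was at 18.6, 24.7 and 25.9 CPM in control and 28.4, 33.8 and 22.7 in CNV. The groups overlapped through CNV replicate 3, and the log2 fold change was 0.29 (SE 0.23, edgeR adjusted p 0.584). The third, miR-669c-5p, has 1 gene in the array and was at 11.7, 22.9 and 19.6 in control and 19.7, 18.1 and 24.4 in CNV. Control replicate 1 was low and the other pools overlapped (log2 0.19, adjusted p 0.786). The 5p arm miR-669a-5p, counted together with miR-669p-5p, was at 9.32, 10.9 and 8.17 in control and 9.34, 11.9 and 8.94 in CNV. Here too the pools were interleaved (log2 0.08, adjusted p 0.912).

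Within the miR-467 family, miR-467c-5p was at 10.2, 14.5 and 10.6 CPM in control and 10.9, 14.9 and 11.3 in CNV. Replicate 2 was the highest in both groups (log2 0.06, edgeR adjusted p 0.934). The group of miR-467a-3p and miR-467d-3p was at 5.35, 6.47 and 6.33 in control and 5.84, 8.76 and 7.22 in CNV. CNV replicate 1 lay inside the control range (log2 0.26, adjusted p 0.648). In miR-467e-5p the control values were 8.80, 8.20 and 5.72 and the CNV values 5.45, 6.17 and 7.57. It was the only named member with a fold change below -0.1 (log2 -0.25, adjusted p 0.675).

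Within the miR-466 and miR-297 families the 3p arms did not separate the groups. The level of miR-466d-3p was 6.90, 8.99 and 10.2 CPM in control and 9.73, 10.5 and 9.97 in CNV. Control replicate 1 was the low pool (log2 0.21, edgeR adjusted p 0.689). The pair miR-466a-3p and miR-466e-3p was at 6.38, 6.90 and 8.78 in control and 7.39, 9.95 and 5.67 in CNV, where CNV held both the lowest and the highest pool (log2 0.07, adjusted p 0.934). The group of miR-297a-3p, miR-297b-3p and miR-297c-3p was at 3.45, 3.31 and 4.70 in control and 3.697, 3.782 and 4.127 in CNV, with every CNV pool inside the control range (log2 0.05, adjusted p 0.936). The remaining 7 tested groups, at 1.84 to 2.49 CPM of the unscaled library total on average, had log2 fold changes of -0.43 to 0.28 and adjusted p of at least 0.613.

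**Figure D4:**
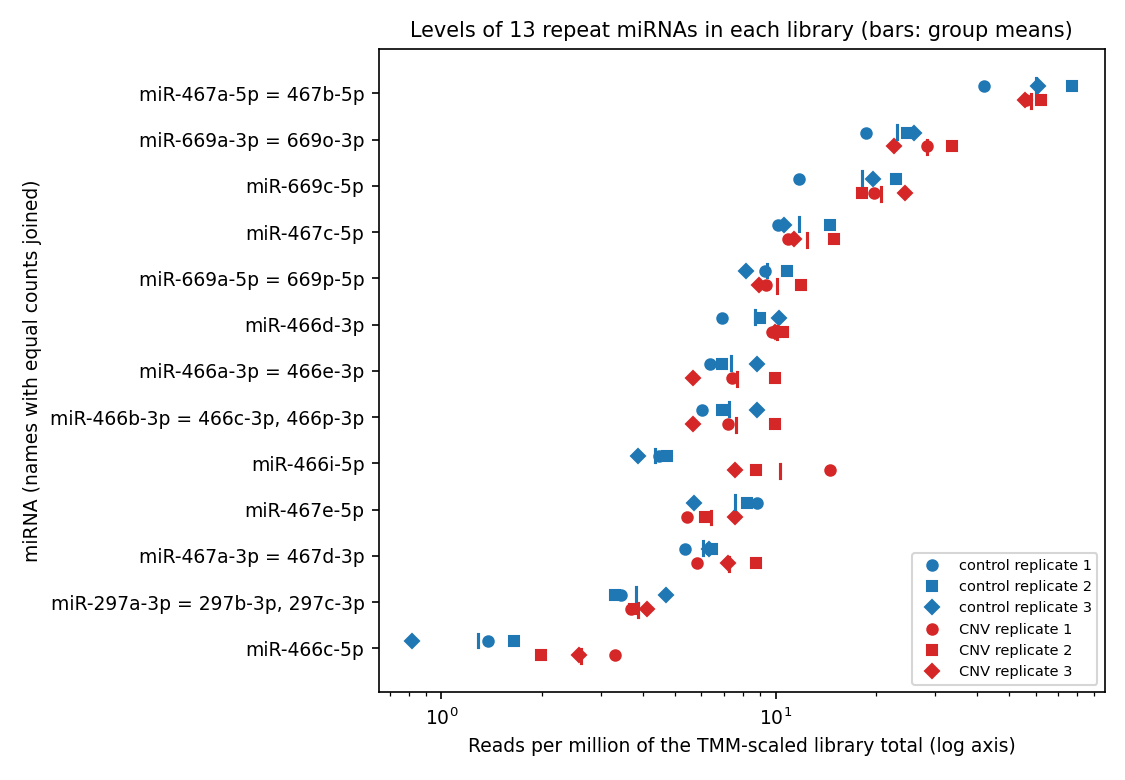
Level of 13 members in each library (horizontal log axis, CPM of the TMM-scaled library total), with control pools in blue, CNV pools in red, a marker shape per replicate and vertical bars at the group means. Only miR-466i-5p and miR-466c-5p have all red points to the right of all blue points.

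The highest and lowest levels of these members were unevenly spread over the libraries, which was not tested. Of the 20 groups, 8 had their highest level in CNV replicate 2, where 13.3% of tested miRNAs had theirs. The lowest level was in control replicate 1 for 7 groups, against 26.2% of tested miRNAs, and in CNV replicate 3 for 5, against 9.61%. Groups that share reads or genes are counted separately here.

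A pair of fixed lists of related miRNAs were set beside the families. The first held miRNAs outside the families that are rich in the same repeat, together with partner arms of their hairpins. Of its 5 names 3 were tested and none was called. Among them miR-574-5p, whose sequence is shown above, was at 87.1, 105.9 and 94.5 CPM in control and 106.8, 118.6 and 107.6 in CNV. On these TMM-scaled levels the groups did not overlap, as was so for 24% of miRNAs, though the nearest pools stood at 105.9 and 106.8. On unscaled library totals the groups overlapped. The log2 fold change of miR-574-5p was 0.21 (SE 0.16, edgeR adjusted p 0.558). Its partner arm miR-574-3p had a log2 fold change of -0.04 (edgeR adjusted p 0.929), and miR-3082-3p one of -0.12 (adjusted p 0.917). The sequence of miR-3082-3p holds neither CACACA nor UGUGUG. The list's median, -0.04, was the value of the partner arm miR-574-3p and does not describe repeat-rich miRNAs. The miR-290 to miR-295 cluster, which like the Sfmbt2 array is known from embryonic stem cells and placenta, had 14 names listed with 15 to 54 reads per library in all. None of them reached the filter on low counts. Summed over 65 groups, the Sfmbt2 families had 956 to 3254 reads per library, where that cluster had at most 54 over 14 names. These sets differ in size, and the sums were not set on a common number of names.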

How the data were processed

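Small RNA libraries of 14 to 40 nt inserts were sequenced on a NextSeq 500, per the labels' protocols. The authors' deposited tables give a read count for each mature miRNA and each tsRNA (small RNA derived from a tRNA) in each library. The submitters' processing notes name Bowtie. The sources used here do not state its version, the genome build, the mismatches or the rule for reads matching several names. No use was made of the deposited CPM column, because miRNAs and tsRNAs were scaled to different totals.

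Counts were analysed in R 4.3.3. The filterByExpr function of edgeR 4.0.16 (minimum count 10, minimum total 15) kept 541 miRNAs and 456 tsRNAs, which were fitted together with TMM factors and no covariate. CNV was tested against control by edgeR's quasi-likelihood test, p was adjusted over all 997 by the Benjamini-Hochberg method, and the threshold was 0.05. Alternatives used DESeq2 1.42.0, limma 3.58.1 (voom), other scalings and filters, and each library left out in turn. Members, lists and the naming rule were chosen with earlier results of these data known. The rule names called groups, the most abundant groups up to 12, the 3 with the smallest p and the most abundant of each family. Read totals of families, locations and arms and the names outside that rule are descriptions. Levels of a name are per read, without correction for the small differences in length. Intervals cover the spread between pools, and PCR copies were not told apart.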

Additional observations from a re-analysis of the deposited data

How the results depend on the processing

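None of the 20 tested groups was called under edgeR in the main analysis, with limma-voom, under any of the 3 scalings, with miRNAs alone, with identical miRNAs kept once, at a minimum mean of 20 CPM (which left 2 groups) or without any single library. There was 1 call, miR-466i-5p, in each of 3 alternatives: no filter on low counts (adjusted p 0.0147), DESeq2 (0.0264) and the replicate number as a block (0.0446). The replicate block gave 1 member call and 36 calls in all, and the numbers were not shown to pair the pools, since same-numbered deviations correlated at 0.29, 0.03 and 0.17 and control replicate 2 correlated best with CNV replicate 3. Over all small RNAs the 3 calls became 88 with no filter, 40 with DESeq2, 6 with miRNAs alone, 0 at a minimum mean of 20 CPM, and 0 to 24 with a library left out. The cause was not tested. Leaving out control replicates 2 or 3, or CNV replicates 1 or 2, gave 0 calls, and leaving out CNV replicate 3 gave 24. The median log2 fold change of tested members ran from -0.01 to 0.15 with a library left out. The mean number of names detected per library, 66.3, was 39.2 when at least 5 reads were asked for, which follows from the stricter minimum. Of 184 values for the 13 named groups under alternatives, 152 kept direction and side of the threshold, 2 kept direction with no adjusted p from DESeq2 (miR-297a-3p and miR-466c-5p), and 27 changed sign, none past the threshold.

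The sign changes were in 7 groups near 0. With library totals as the only scaling and with no filter, the log2 fold changes were -0.094 and -0.031 for miR-297a-3p, -0.084 and -0.015 for miR-466a-3p, -0.073 and -0.0043 for miR-466b-3p, -0.093 and -0.020 for miR-467c-5p, and -0.078 and -0.0026 for miR-669a-5p. With miRNAs alone miR-467a-5p was at 0.019. With a library left out the range was -0.16 to 0.16 for miR-297a-3p, -0.21 to 0.17 for miR-466a-3p, -0.21 to 0.18 for miR-466b-3p, -0.24 to 0.084 for miR-467a-5p, -0.14 to 0.16 for miR-467c-5p, -0.11 to 0.12 for miR-669a-5p and -0.028 to 0.32 for miR-669c-5p. Depth limits the rest: the 49 names not tested had a median of 12 reads over all libraries.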
